A study of Homo sapiens with 12 samples.

Results

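DIS3L2 is a cytoplasmic exoribonuclease that degrades RNA from the 3′ end and acts with preference on transcripts that carry a tail of uridines. Germline loss of the enzyme underlies Perlman syndrome, an overgrowth disorder with a high risk of Wilms tumour. HEK293 is an established human embryonic kidney line with many neuronal transcripts. The comparison described here set total RNA from HEK293 cells that produced a catalytic mutant of DIS3L2 (mut) against total RNA from cells that produced the wild-type enzyme (WT), and asked which transcripts differ in abundance when the nuclease is inactive. It used the 6 total RNA libraries, 3 per variant, of 12 libraries in the series, and the members were taken by the assay named in their labels. Both groups were Flp-In T-REx lines that carried an inducible cassette. The cassette encoded a recoded, C-terminally FLAG-tagged DIS3L2 together with sh-miRNAs against the endogenous mRNA, and both groups received doxycycline at 100 ng/ml for 3 days. The groups therefore share the drug, the tag and the sh-miRNAs and differ in the DIS3L2 variant and in the line that carries it. The labels do not say whether each line was 1 clone, nor whether replicates were separate cultures, so the p-values cover only variation among these libraries, part or all of which may be technical.

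RNA had been depleted of ribosomal RNA before strand-specific TruSeq libraries were made, so transcripts with and without a poly(A) tail were measured. Gene counts ranged from 8315986 to 12675042 per library. The first principal component held 67.9% of the variance and separated the groups, with mut libraries between −18.9 and −12.7 and WT libraries between 11.1 and 18.1. The second held 11.9% and placed mut library 1 (9.94) and WT library 2 (6.85) on the same side. Levels are given as CPM, counts scaled to the size of the library with TMM factors, and differences as log2 fold changes of mut over WT, with "rose" and "fell" kept for genes with an edgeR adjusted p under 0.05. DIS3L2 itself rose, at 1144, 1040 and 1091 CPM in mut and 763, 813 and 777 CPM in WT (1.39-fold, edgeR adjusted p = 1.9e-07). The groups thus also differed in the level of DIS3L2 transcripts. The count does not separate the transgene from the endogenous gene, so it is no test of the silencing. Of 12 markers of HEK293 cells 9 passed the filter on low counts, among them NEFL (83.7 to 132 CPM) and vimentin. NEFM, NEFH and PAX2 did not, with 12, 23 and 35 counts over the 6 libraries together. The summed level of 10 blood cell markers was at most 1.2 CPM and that of 8 hepatocyte markers at most 0.67 CPM in any library.

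Many genes differed and most differences were small. Of 14409 genes tested, 13.0% rose and 14.2% fell in mut, 27.2% in all. The groups did not overlap in 40.5% of tested genes, and in 95.2% of those that passed. The median absolute log2 fold change of the genes that passed was 0.37, and 76.5% of them differed by less than 1.5-fold. Changes over 2-fold were 1.30% of tested genes upward and 0.958% downward, and changes over 4-fold were 27 genes upward and 16 downward. Protein-coding genes were divided into 4 groups of equal size by mean level. In the top group (66.9 CPM and above) 19.7% rose and 17.2% fell. In the lowest group (up to 11.1 CPM) 10.3% rose and 7.69% fell, and the genes that passed had a median absolute log2 fold change of 0.73, against 0.26 in the top group. Of 749 tested long noncoding RNAs 73 rose and 71 fell, whereas of 31 small nuclear RNA genes 27 rose and 0 fell and of 82 small nucleolar RNA genes 27 rose and 0 fell.

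**Figure D1:**
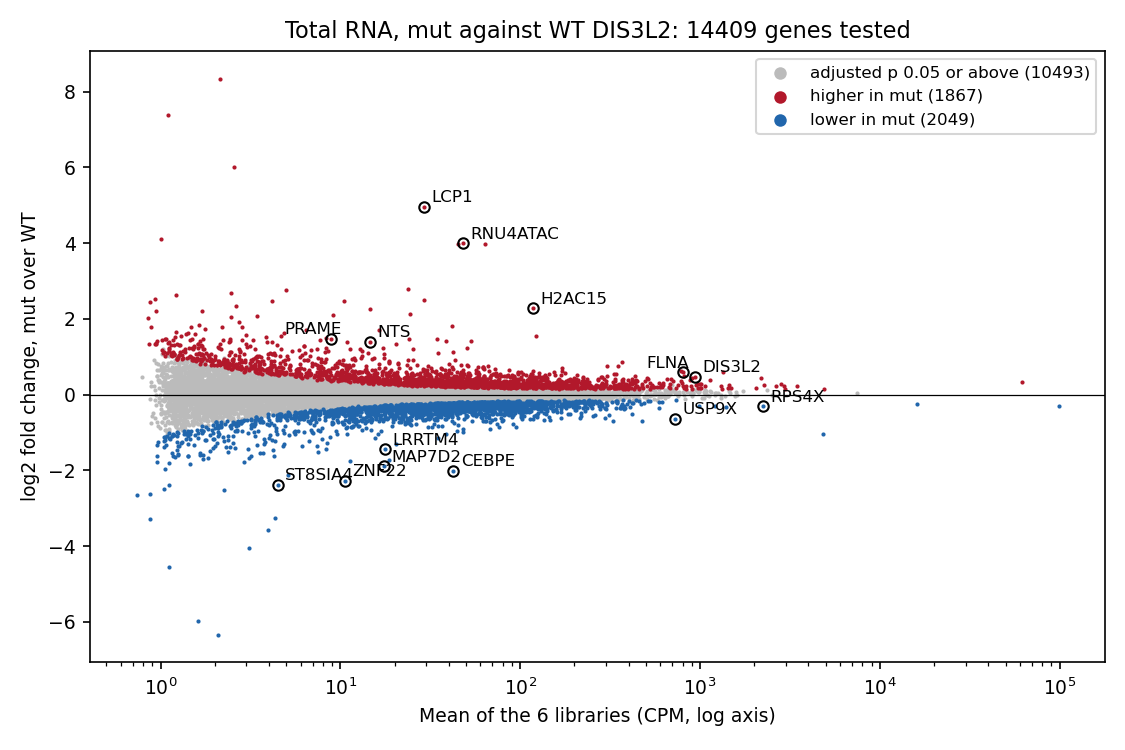
Each point is 1 of 14409 genes, with its mean level over the 6 libraries (CPM, log axis) and its log2 fold change of mut over WT; red genes rose, blue genes fell and grey genes did not pass. LCP1 stands at 4.96 and CEBPE at −2.01, while abundant genes such as DIS3L2 and USP9X lie within 1 unit of 0.

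The largest rise of a protein-coding gene at or above 10 CPM was that of LCP1, which encodes L-plastin, an actin-bundling protein best known from white blood cells (ENSG00000136167.12, chromosome 13, 46125923 to 46182177). It was at 55.3, 55.8 and 58.4 CPM in mut and at 2.38, 1.57 and 1.47 CPM in WT, 31.2-fold higher. The 20 protein-coding genes beside it had a median log2 fold change of −0.01, with 9 above 0, so LCP1 stood alone in its neighbourhood. RAC3, a small GTPase of neurons that controls the actin cytoskeleton, was at 64.8, 55.2 and 53.8 CPM in mut and at 26.2, 29.4 and 24.0 CPM in WT (2.17-fold, adjusted p = 7.0e-10). NTS, the precursor of the neuropeptide neurotensin, was at 24.0, 19.1 and 20.0 CPM against 8.07, 7.44 and 8.85 CPM. NTS rose by 1.39 (SE 0.12) while only 2 of its 20 neighbours were above 0. PRAME, a melanoma and testis antigen, rose from 4.65 ± 0.66 to 13.1 ± 0.84 CPM (SD, n = 3). The lysosomal cysteine protease gene CTSV rose from 11.8 ± 1.32 to 23.1 ± 1.88 CPM. CELSR3, an atypical cadherin of planar cell polarity, rose from 8.73 ± 0.15 to 17.7 ± 1.18 CPM. In each of these genes the lowest mut library was above the highest WT library, which was a condition of their selection.

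Among the other large rises of protein-coding genes, 5 lay where at least 14 of 20 neighbours were above 0 and 4 did not. NIBAN1, a stress-responsive regulator of translation on chromosome 1, rose by 1.45 with 16 of 20 neighbours above 0. The neuronal guidance receptor gene ASTN1, also on chromosome 1, rose by 1.21 with 18 of 20 neighbours above 0. BATF3, a transcription factor of dendritic cells, rose by 0.94 with 19 of 20 neighbours above 0. On chromosome 5 the ubiquitin ligase subunit gene FBXO4 rose by 1.07 and the selenium transport protein gene SELENOP by 1.14, with 15 and 14 neighbours above 0. RINL, a guanine nucleotide exchange factor for Rab proteins, rose by 1.39 with 10 of 20 neighbours above 0. NFKBID, a nuclear inhibitor of NF-kappa-B, rose by 0.95 with 11 of 20 above 0, and MYOM2, a sarcomere protein gene, by 1.2 with 5 of 17. The histone gene H2AC15 was at 202, 193 and 194 CPM in mut and 40.02, 41.03 and 39.81 CPM in WT, with 11 of 20 neighbours above 0.

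The falls of protein-coding genes at or above 10 CPM were led by ZNF22, a zinc finger protein gene on chromosome 10 (ENSG00000165512.4, 45000923 to 45005326), at 3.80, 3.76 and 3.22 CPM in mut and 17.3, 16.7 and 18.7 CPM in WT. ZNF22 was thus 4.84-fold higher in WT. CEBPE, a transcription factor of granulocyte maturation on chromosome 14 (ENSG00000092067.5, 23117306 to 23119255), was at 16.97, 15.03 and 18.39 CPM against 70.8, 62.9 and 70.4 CPM. Of its 20 neighbours 4 were above 0, with a median of −0.22, far smaller than its own fall of −2.01. MAP7D2, a microtubule-binding protein of neurons encoded on the X chromosome, was at 7.48, 7.40 and 7.24 CPM against 28.2, 27.5 and 26.7 CPM. TSPO, the cholesterol-binding translocator protein of the outer mitochondrial membrane, was at 9.83, 7.28 and 8.96 CPM against 27.7, 33.0 and 25.2 CPM. TSPO fell although 13 of its 20 neighbours on chromosome 22 were above 0. None of these 4 genes had libraries that overlapped between the groups, which was a condition of their selection.

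Several further falls were in genes of neurons and of development. LRRTM4, a synaptic adhesion protein, was at 8.26, 10.2 and 10.1 CPM in mut and 25.2, 27.6 and 24.7 CPM in WT, with 12 of 20 neighbours above 0. The ephrin receptor gene EPHA3 was at 23.9, 26.5 and 25.2 CPM against 52.0, 49.9 and 53.6 CPM. LRP1B, a large endocytic receptor gene, fell from 47.9 ± 4.15 to 21.5 ± 1.57 CPM. SOX5, a transcription factor of cartilage and neurons, fell by 1.14 (SE 0.11). HOXB6, a patterning factor of the HOXB cluster, was at 11.8, 11.4 and 12.1 CPM against 26.7, 29.8 and 30.5 CPM. CACNA1H, a T-type calcium channel gene, fell by 1.11, and SPRY4, a feedback inhibitor of receptor tyrosine kinase signalling, by 1.18. EPHA3, LRP1B, SOX5 and HOXB6 each had at most 7 of 20 neighbours above 0.

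**Figure D2:**
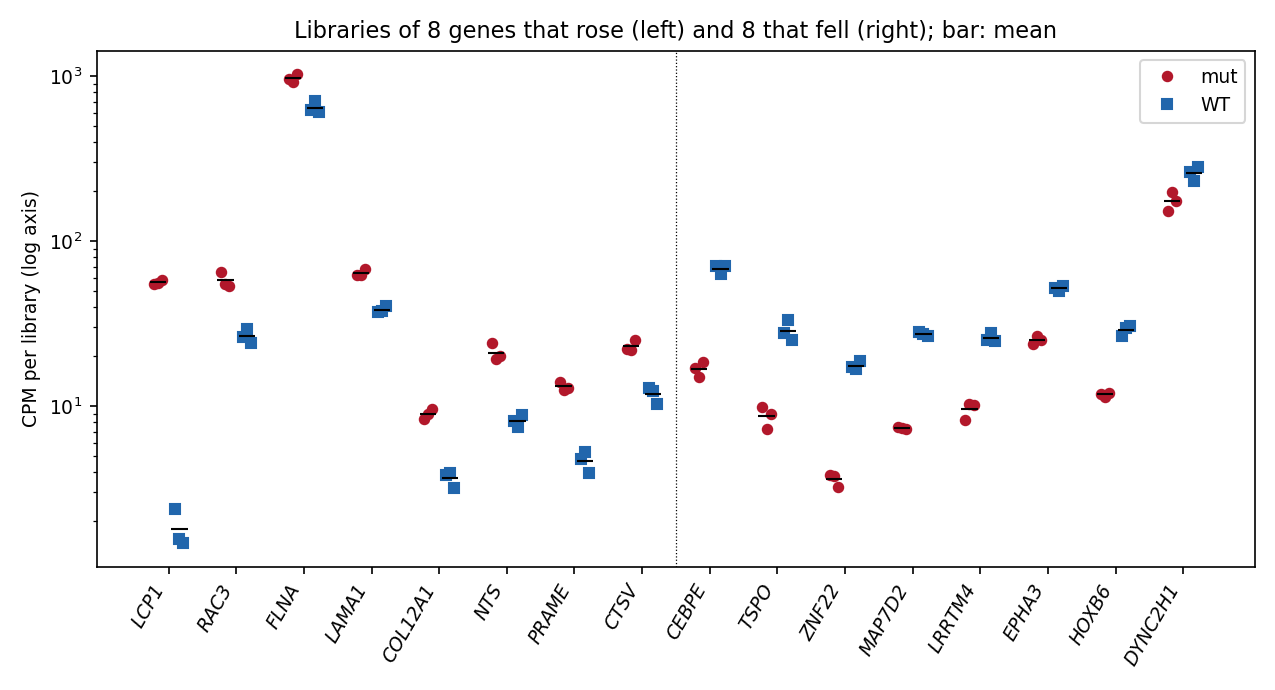
Level of 16 genes in each library (CPM, log axis), with mut as red circles, WT as blue squares and the group mean as a bar; the 8 genes left of the dotted line rose and the 8 to its right fell. LCP1 lies at 1.47 to 2.38 CPM in WT and at 55.3 to 58.4 CPM in mut, and in none of the 16 genes do the groups overlap. The lack of overlap was a condition of selection for all but FLNA, LAMA1, COL12A1 and DYNC2H1.

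By absolute change in level, the rises were led by abundant transcripts of energy metabolism, translation and protein folding. PKM, the glycolytic pyruvate kinase, was at 2691, 2366 and 2473 CPM in mut and 1769, 1973 and 1854 CPM in WT. Its rise was 0.43 on the log2 scale. ENO1 and GAPDH, also glycolytic, rose by 0.15 and 0.16 (adjusted p = 0.017 and 0.031), and both calls were lost when single libraries were left out (adjusted p up to 0.10 and 0.13). The elongation factor gene EEF2 rose by 0.24, the ribosomal protein genes RPL4 and RPLP0 by 0.28 and 0.25, and the chaperone genes HSPA8 and HSP90AB1 by 0.22 each. PKM and RPL4 lie on chromosome 15, with 16 and 15 of 20 neighbours above 0 and a neighbour median of 0.19 each. The neighbours above 0 were 15 of 20 for EEF2, 14 for RPLP0, 10 for HSP90AB1 and 7 for HSPA8. On the falling side, USP9X, a deubiquitinase encoded on the X chromosome, was at 506, 603 and 591 CPM in mut and 882, 829 and 927 CPM in WT. Other large falls were those of RPS4X (−0.31), the RNA helicase gene DDX3X (−0.36), the cohesin subunit gene STAG2 (−0.38) and ZNF711 (−0.69), which are also encoded on the X chromosome, and of the chaperone gene HSP90AA1 (−0.31). ARHGAP5, a GTPase activating protein encoded on chromosome 14, was at 222, 269 and 251 CPM against 418, 369 and 428 CPM. Of its 20 neighbours 0 were above 0, with a median of −0.57 beside its own −0.71. DST, a cytoskeletal linker of the plakin family, fell by 0.51.

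Noncoding genes supplied other large changes. The minor spliceosomal RNU4ATAC was at 89.8, 82.8 and 97.4 CPM in mut and 6.62, 4.23 and 6.51 CPM in WT. The long noncoding RNA LINC02226 was at 38.2, 45.2 and 42.2 CPM against 5.38, 6.58 and 5.90 CPM. The U1 gene RNVU1-29 was at 130, 109 and 118 CPM against 7.34, 6.81 and 8.85 CPM, and the U1 genes RNVU1-18, RNVU1-15 and RNU1-1 rose by 3.97, 2.50 and 2.48. A gene of the nucleolar RNA U3 rose by 2.13. U1 genes have near-identical copies, so how reads are divided among them is uncertain, as it is for the histone gene H2AC15. Falls of noncoding genes were smaller. HELLPAR, a long noncoding RNA, was at 28.9, 32.3 and 28.0 CPM in mut and 59.7, 53.8 and 62.5 CPM in WT. LINC00355, LINC01355, LINC02985 and SLIT2-IT1 fell by 0.93 to 1.37. No library of these 4 overlapped between the groups, which was a condition of their selection.

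Actin-based structure had the largest share of rising members among the 29 gene lists with at least 20 tested genes. Of 47 tested genes of actin filaments and their regulators 19 rose and 2 fell, 40.4% and 4.26%, against 13.0% and 14.2% of all tested genes, with a median log2 fold change of 0.15 against −0.01. FLNA, the filamin that crosslinks actin and anchors it to the membrane, was at 968, 921 and 1029 CPM in mut and 622, 706 and 604 CPM in WT (1.51-fold, SE 0.06 on the log2 scale, adjusted p = 4.2e-08). MYL12A, a regulatory light chain of non-muscle myosin, was at 66.0, 70.3 and 71.9 CPM against 45.1, 42.8 and 44.5 CPM. FSCN1, the actin bundler of filopodia, was at 65.1, 58.5 and 54.1 CPM against 31.7, 38.0 and 34.2 CPM. The cytoplasmic actin genes ACTB and ACTG1 rose by 0.25 and 0.26, the myosin heavy chain gene MYH9 by 0.47, calponin CNN2 by 0.54 and the tropomyosins TPM1 and TPM4 by 0.28 and 0.25. The falls were those of CFL2, the muscle cofilin, which was at 97.1, 105 and 110 CPM against 159, 134 and 150 CPM, and of PLS1, the plastin of intestinal microvilli (−0.22). Libraries of ACTG1 overlapped between the groups, and TAGLN, CAPG and NES, all below 4 CPM, were called by edgeR and not by DESeq2. DESeq2 did not call PLS1 either (adjusted p = 0.13), and edgeR lost it without mut library 1 or 3 or WT library 1 or 3 (adjusted p = 0.29, 0.054, 0.11 and 0.20). DESeq2, which called 8.23% of its tested genes higher and 8.57% lower, called 16 members higher and 1 lower, and leaving out single libraries gave 15 to 22 higher.

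Part of the list lies where whole chromosome segments shifted. Each chromosome was divided by gene order into 4 segments of equal gene number, and in 13 of 92 segments more than 40% of genes passed in one direction. Outside those segments 17 of 41 actin genes rose and 1 fell, where 10.3% of all tested genes rose and 14.0% fell. MYL12A, on chromosome 18, had 19 of 20 neighbours above 0, whereas FSCN1 had 8 of 20 and LCP1 9 of 20.

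Actin genes are classical targets of serum response factor, which binds a 10-base element called the CArG box. The RefSeq windows of GRCh38.p14 that reach from 250 bases before to 50 bases after gene starts were searched for it on both strands, as the element reads the same on each. It was found in 1.29% of 35116 windows and in 159 of 10068 tested protein-coding genes with a window. Of 42 actin genes with a window 5 held it, and 4 of these 5 rose (FLNA, ACTG1, CNN2 and TPM4). Of the 19 actin genes that rose 15 had a window, and in most of these 15 the window lacked the element. ACTN1 held it too and was at 65.2 ± 5.10 against 60.3 ± 4.52 CPM, with adjusted p = 0.32. Among all 159 tested protein-coding genes with the element 13.8% rose and 12.6% fell, close to the 13.0% and 14.2% of all tested genes. The gene of serum response factor itself, SRF, rose by 0.24 (69.7, 75.9 and 66.7 CPM in WT, 82.5, 82.6 and 85.8 CPM in mut), and the call was lost when WT library 1 (adjusted p = 0.058) or 3 (adjusted p = 0.060) was left out. The 250 bases before the starts of FLNA, ACTG1 and CNN2 are shown because these windows hold the element, and those of LCP1 because it rose the most and its window does not. The element is in capitals, each sequence runs 5′ to 3′ on the strand of the gene, and a match describes letters and not a binding site.
FLNA, chrX:154374635-154374884, minus strand: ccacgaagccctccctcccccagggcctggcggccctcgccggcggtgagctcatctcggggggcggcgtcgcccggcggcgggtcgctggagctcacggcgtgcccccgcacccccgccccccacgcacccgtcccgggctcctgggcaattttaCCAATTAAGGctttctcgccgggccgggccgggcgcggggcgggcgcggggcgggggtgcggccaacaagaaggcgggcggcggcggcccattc
ACTG1, chr17:81512800-81513049, minus strand: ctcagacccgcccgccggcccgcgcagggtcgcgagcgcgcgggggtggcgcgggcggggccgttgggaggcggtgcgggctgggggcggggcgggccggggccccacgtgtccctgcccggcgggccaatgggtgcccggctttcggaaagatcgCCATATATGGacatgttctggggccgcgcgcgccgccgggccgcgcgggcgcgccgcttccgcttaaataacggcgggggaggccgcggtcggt
CNN2, chr19:1026358-1026607, plus strand: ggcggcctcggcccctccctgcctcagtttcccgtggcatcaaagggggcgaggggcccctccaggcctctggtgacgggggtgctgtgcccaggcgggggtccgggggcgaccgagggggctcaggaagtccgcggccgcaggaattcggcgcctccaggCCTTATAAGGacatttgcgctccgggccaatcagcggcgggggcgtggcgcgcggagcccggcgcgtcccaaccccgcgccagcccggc
LCP1, chr13:46182178-46182427, minus strand: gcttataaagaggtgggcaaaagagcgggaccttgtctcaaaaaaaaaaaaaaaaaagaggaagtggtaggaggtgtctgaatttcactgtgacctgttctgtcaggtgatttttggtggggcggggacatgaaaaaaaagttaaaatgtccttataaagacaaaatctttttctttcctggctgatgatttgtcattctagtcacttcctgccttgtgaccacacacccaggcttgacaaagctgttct
The element began 94 bases before the start in both FLNA and ACTG1 and 89 bases before it in CNN2.

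Genes of the extracellular matrix and its receptors moved in the same direction. Of 67 tested genes 22 rose and 3 fell, 32.8% and 4.48%, with a median of 0.17. LAMA1, an alpha chain of the laminins of basement membranes, was at 62.3, 62.6 and 67.7 CPM in mut and 36.9, 37.7 and 40.2 CPM in WT. COL12A1, a collagen that associates with fibrils, was at 8.37, 8.93 and 9.54 CPM against 3.83, 3.92 and 3.19 CPM. AGRN, the heparan sulfate proteoglycan agrin, was at 61.7, 61.9 and 61.6 CPM against 43.74, 40.01 and 42.02 CPM. Fibronectin (FN1) rose by 0.49, nidogen (NID1) by 0.47, the fibronectin receptor subunit ITGA5 by 0.35 and the syndecan SDC1 by 0.43. The laminin chains LAMA3, LAMC1 and LAMB3 rose by 0.54, 0.36 and 1.11, the last from below 3 CPM. COL2A1, the collagen of cartilage, fell from 22.9, 26.9 and 24.9 to 15.3, 11.7 and 14.8 CPM. The integrin subunit gene ITGA8 and the laminin gene LAMA4 fell by 0.49 and 0.33. Outside the shifted segments 15 of 52 rose and 3 fell. LAMA1 and LAMA3 lie on chromosome 18, and LAMA1 had 18 of 20 neighbours above 0, while COL12A1 had 5 of 20. LAMC1, LAMB3 and NID1 lie in the last segment of chromosome 1, where 180 of 304 protein-coding genes rose, with a median of 0.31. Fibroblast markers overlap this list. Their summed level was 4.88 to 6.88 CPM in mut and 2.81 to 3.87 CPM in WT, with COL1A2, DCN, LUM and FAP at 0 in all 6 libraries.

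**Figure D3:**
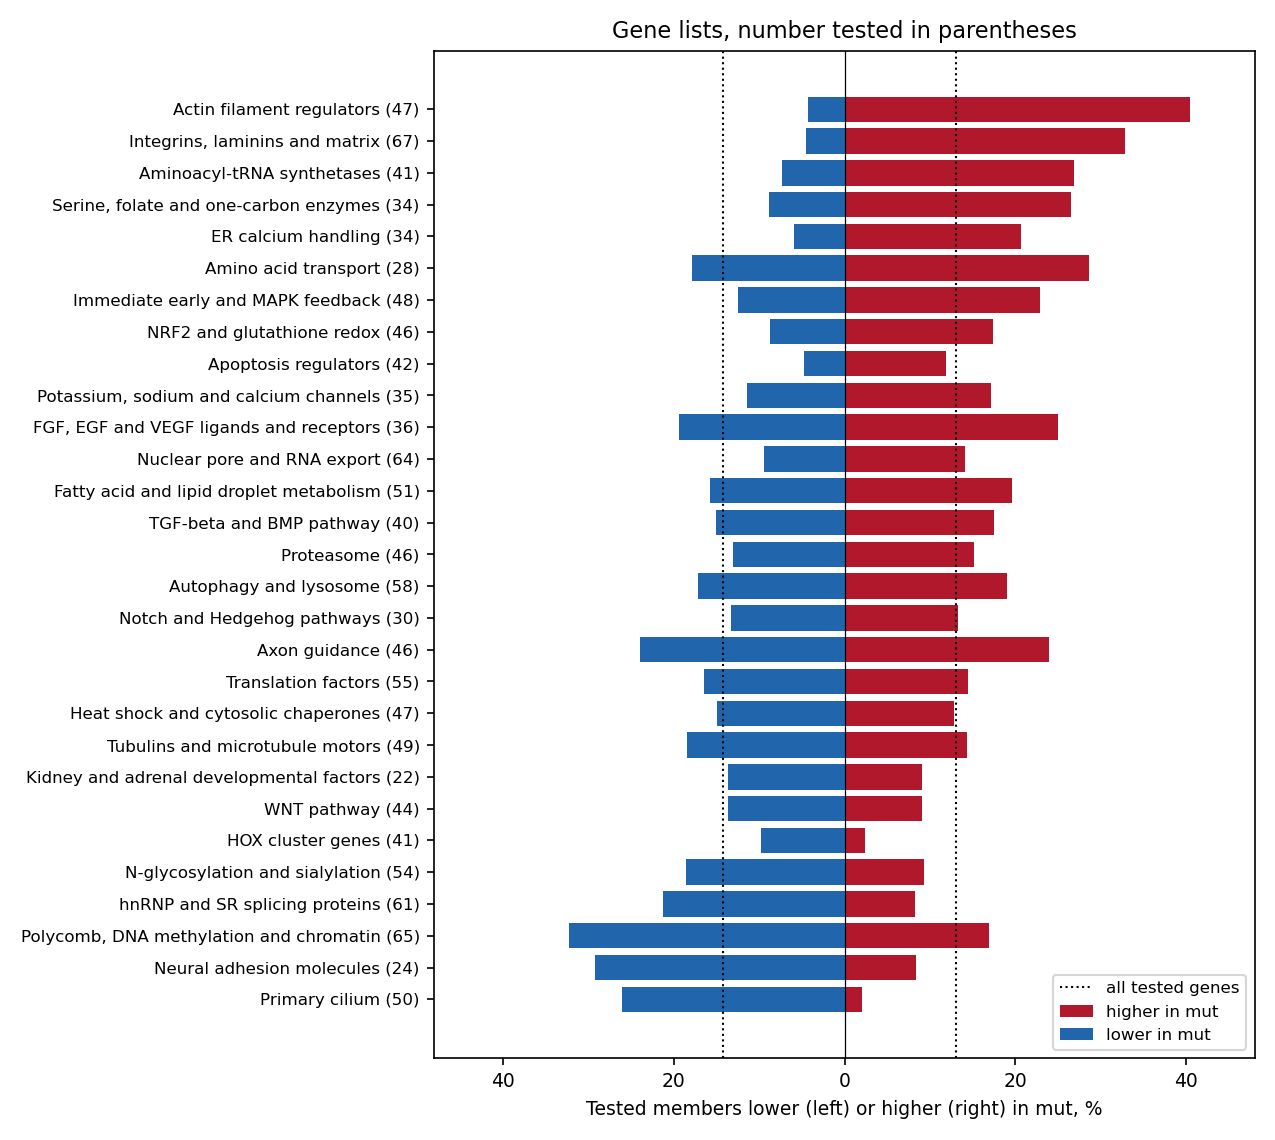
Share of tested members that rose (red, right) and fell (blue, left) in 29 gene lists, with dotted lines at the shares of all tested genes (13.0% and 14.2%). Actin regulators and matrix genes have the longest bars to the right, and the chromatin, neural adhesion and cilium lists the longest to the left.

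Of 436 tested ZNF zinc finger genes 175 fell and 15 rose, 40.1% and 3.44%, a pattern noticed in the data and described without a test of the family. Most are repressors of the KRAB type, many of which silence transposable elements, and the largest clusters lie on chromosome 19. Of 209 tested ZNF genes on chromosome 19, 107 fell and 3 rose, 51.2% and 1.44%, with a median log2 fold change of −0.28. Of the other 638 protein-coding genes of that chromosome 17 fell and 94 rose, with a median of 0.09. ZNF genes on other chromosomes had counts in the same direction, with 68 of 227 lower and 12 higher and a median of −0.16. ZNF320 (chromosome 19, 52859491 to 52904320) was at 4.69, 5.52 and 5.40 CPM in mut and 17.1, 18.7 and 16.2 CPM in WT. ZNF486 was at 3.35, 3.64 and 4.48 CPM against 11.9, 9.79 and 11.8 CPM. ZNF91, a repressor of retrotransposons, was at 21.1, 26.7 and 25.4 CPM against 41.1, 39.9 and 45.3 CPM. ZNF146, among the largest falls in level, was at 210, 248 and 239 CPM against 371, 330 and 370 CPM. ZNF813 fell by 1.04 and ZNF354C, on chromosome 5, by 1.43. The 3 that rose were ZNF473, ZNF653 and ZNF524, by 0.20 to 0.64.

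The median of the chromosome 19 zinc finger genes was lower in each mut library than in each WT library, and lowest in mut library 1. As the median log2 deviation from the mean of the 6 libraries, the chromosome 19 ZNF genes stood at −0.23, −0.08 and −0.10 in mut and at 0.17, 0.07 and 0.18 in WT. The other genes of chromosome 19 stood at 0.12, −0.01 and 0.03 in mut and at −0.08, 0.03 and −0.08 in WT, so in those genes the groups overlapped. DESeq2 called 67 of the 209 lower and 0 higher, and leaving out single libraries gave 71 to 114 lower. Many of these genes resemble one another in sequence, and reads with several alignments are not in the counts, so the split of reads between close copies is uncertain. Among 51 families of at least 20 tested genes that share the letters of their symbols, ZNF had the lowest median (−0.23 over 436 genes) and the mitochondrial ribosomal MRPL family the highest (0.08, with 9 of 49 higher and 0 lower).

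**Figure D4:**
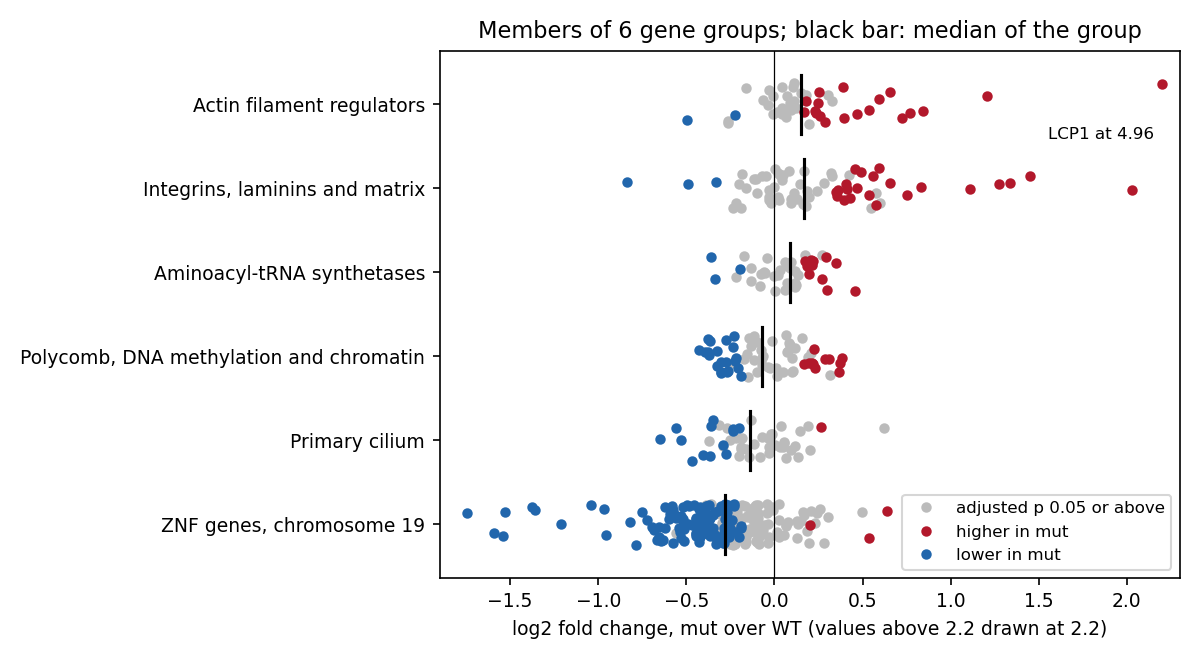
Log2 fold change of mut over WT for every tested member of 6 gene groups, coloured by the edgeR call, with the median of each group as a black bar and LCP1 (4.96) drawn at the right edge. The medians run from 0.17 for matrix genes to −0.28 for ZNF genes of chromosome 19.

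Among the genes of the primary cilium and the centrosome that passed the test, most were lower, though most members did not pass. The cilium is a sensory projection built on a centriole and extended by intraflagellar transport. Of 50 tested cilium genes 13 fell and 1 rose, 26.0% and 2.0%, with a median of −0.14. DYNC2H1, the heavy chain of the dynein that returns cargo from the ciliary tip, was at 152, 199 and 174 CPM in mut and 262, 231 and 282 CPM in WT. AHI1, a protein of the transition zone, was at 32.3, 35.7 and 40.6 CPM against 55.01, 49.49 and 52.71 CPM. WDR19 of the retrograde transport complex fell by 0.47 and RPGR, a regulator of ciliary transport whose loss causes retinal degeneration, by 0.65. OFD1, TTC21B, IFT81 and IFT88 fell by 0.35 to 0.40, and TCTN2 rose by 0.26. RPGR, on the X chromosome, had 3 of 20 neighbours above 0, AHI1 had 4, DYNC2H1 5 and WDR19 6. With the shifted segments left out, 11 of 47 cilium genes fell and 1 rose. When a trend with gene span was removed, 11 of 50 were lower and 2 higher, and the median was −0.08. DESeq2 called 8 members lower and 0 higher. Leaving out library 3 of mut gave 7 lower by edgeR, and leaving out library 1 or 3 of WT gave 8 each. The CEP family of centrosomal proteins, chosen from the 51 families for its second lowest median (−0.18), had 17 of 38 lower and 2 higher. CEP290, a transition zone protein, was at 40.1, 52.6 and 49.5 CPM against 90.3, 78.5 and 97.1 CPM. The 2 that rose, CEP192 and CEP76, lie on chromosome 18.

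Chromatin regulators split in both directions. Of 65 tested genes 21 fell and 11 rose, 32.3% and 16.9%, with a median of −0.07. RBBP7, a histone-binding subunit of polycomb and deacetylase complexes, was at 244, 270 and 271 CPM in mut and 340, 341 and 333 CPM in WT, and 2 of its 20 neighbours on the X chromosome were above 0. UHRF2, which binds modified DNA and histones, was at 45.0, 44.2 and 44.2 CPM against 60.4, 58.2 and 61.6 CPM. The histone methyltransferase gene KMT2C and the remodeller gene CHD1 fell by 0.38 and 0.36. The DNA demethylases TET1 and TET2 fell by 0.33 and 0.38. The polycomb genes EZH2, SUZ12 and BMI1 fell by 0.21 to 0.23, and DESeq2 did not call them (adjusted p = 0.061, 0.12 and 0.052). MBD2 and MBD3, of the methyl-CpG-binding domain family, rose by 0.37 each and HDAC5 by 0.38. DESeq2 called 13 members lower and 8 higher, and without library 1 of mut or library 1 or 3 of WT the edgeR count of lower members was 13, 12 and 12. The count of higher members was 7 without mut library 3 or WT library 3.

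Splicing regulators of the hnRNP and SR families fell in 13 of 61 cases and rose in 5, with a median of −0.06. PTBP2, the neuronal form of the polypyrimidine tract binding protein, was at 48.2, 55.3 and 49.8 CPM in mut and 91.1, 76.9 and 84.3 CPM in WT. NOVA1, a neuronal splicing factor on chromosome 14, was at 3.80, 4.46 and 4.37 CPM against 8.17, 7.99 and 8.85 CPM, with 2 of 20 neighbours above 0. MBNL1, the muscleblind factor, fell by 0.34, while HNRNPL rose by 0.30. Without WT library 1 or WT library 3 the number of lower members was 8 and 7. The number higher was 1 without mut library 3 or WT library 1 and 2 without WT library 3.

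Neuronal genes did not move as 1 block. Of the 9 tested markers of HEK293 cells 6 rose and 0 fell, with NEFL at 116, 131 and 132 CPM in mut and 83.7, 94.4 and 86.9 CPM in WT. The neuronal intermediate filament gene INA and the enolase gene ENO2 rose by 0.55 each. Neural adhesion molecules went the other way, with 7 of 24 lower and 2 higher and a median of −0.14. The count higher was 1 without mut library 2 and 0 without WT library 2. These genes are long, with a median span of 313044 bases. When a trend with gene span was removed, 6 were lower and 3 higher, and the median was −0.03. Besides LRRTM4, the immunoglobulin superfamily genes CNTN1 and NRCAM fell by 1.24 and 0.42. LSAMP, a limbic system adhesion gene, had 0, 0 and 1 counts in mut and 30, 58 and 39 counts in WT. Axon guidance genes had 11 of 46 higher and 11 lower. Their rises included the semaphorin coreceptors PLXNA2 (30.96 ± 1.53 against 16.4 ± 0.99 CPM) and PLXNA4 (7.46 ± 0.57 against 3.31 ± 0.37 CPM) and the netrin receptor UNC5B (0.48). All 20 neighbours of PLXNA2 on chromosome 1 were above 0, against 5 of 20 for PLXNA4. Their falls were led by EPHA3. DESeq2 called 6 higher and 8 lower, and the number higher was 6 or 7 without library 1 of mut or library 1 or 3 of WT.

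Among 16 tested cadherins and protocadherins 6 rose and 4 fell, and protocadherins were on both sides, with PCDH1 higher by 0.80 and PCDH9, PCDH19 and PCDH7 lower by 0.53, 0.86 and 0.32. Of 41 tested HOX genes 4 fell and 1 rose, so most members of these clusters did not pass. HOXA13 and HOXB3 fell by 0.30 and 0.36, and HOXD8 rose by 0.43, with HOXB3 and HOXD8 not called by DESeq2 and HOXD8 lost when single libraries were left out (adjusted p up to 0.087). Developmental factors of the kidney and adrenal gland had 2 of 22 higher and 3 lower. FOXD1, a factor of the kidney stroma, was at 23.2, 19.6 and 18.96 CPM in mut and 14.0, 14.7 and 11.7 CPM in WT. TBX18 and EYA4 fell by 0.48 and 0.38. SALL3, on chromosome 18, had 33, 37 and 42 counts in mut and 0 in each WT library.

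Growth factor signalling showed opposite changes within single pathways. Of 48 tested immediate early and MAPK feedback genes 11 rose and 6 fell. The ETS factors of the PEA3 group, which respond to FGF and ERK signalling, fell together. ETV1 was at 15.1, 17.6 and 16.4 CPM in mut and 26.0, 25.6 and 29.6 CPM in WT, ETV5 at 17.6, 14.8 and 18.7 CPM against 26.0, 25.9 and 26.7 CPM, and ETV4 fell by 0.77. FOSL1, an AP-1 subunit, fell by 1.26. The stress-responsive factor ATF3 was at 36.1, 31.2 and 38.2 CPM against 23.3, 21.3 and 22.0 CPM, and the ERK phosphatase DUSP5 at 41.2, 35.4 and 40.6 CPM against 25.5, 24.7 and 26.2 CPM. All 20 neighbours of ATF3 on chromosome 1 were above 0, against 5 of 20 for DUSP5. DESeq2 called 6 higher and 5 lower, and without WT library 1 edgeR called 6 higher. Of 36 tested ligands and receptors of the FGF, EGF and VEGF families 9 rose and 7 fell. SPRY4 and the neuregulin receptor ERBB4 (−0.52) were among the falls. VEGFC, a growth factor of lymphatic vessels, had 0, 1 and 1 counts against 25, 18 and 20. HGF, the ligand of MET, had 13, 17 and 11 counts against 5, 1 and 2.

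WNT, TGF-beta, Notch and Hedgehog genes had shares near the background. Of 44 WNT pathway genes 4 rose and 6 fell, with DVL1 at 0.31, APC at −0.44 and LGR5 at −0.32. Without WT library 1 the count higher was 2. SFRP2, a secreted WNT modulator, had 19, 16 and 15 counts in mut and 1 in each WT library. Of 40 TGF-beta and BMP genes 7 rose and 6 fell. INHBE, an activin subunit, was at 6.36, 7.99 and 7.47 CPM against 2.69, 2.11 and 2.33 CPM, SMAD4 rose by 0.33, and ID4 and BMPR2 fell by 0.37 and 0.36. SMAD4, on chromosome 18, had 18 of 20 neighbours above 0, against 12 of 20 for INHBE. Without WT library 1 the counts were 4 and 3, and without mut library 3 the count lower was 3. Counts of TGF-beta and BMP genes outside the shifted segments were 3 of 32 higher and 6 lower. Of 30 Notch and Hedgehog genes 4 rose and 4 fell. PTCH1, a receptor for Hedgehog ligands, was at 20.4, 20.3 and 20.8 CPM in mut and 27.1, 29.1 and 27.8 CPM in WT. NOTCH2 rose by 0.38 and HES4, a Notch target, by 0.55.

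Enzymes that charge tRNAs rose more often than they fell. Of 41 tested aminoacyl-tRNA synthetases and their scaffold proteins 11 rose and 3 fell, 26.8% and 7.32%, with a median of 0.09. The mitochondrial valyl enzyme VARS2 was at 85.9, 72.0 and 76.6 CPM in mut and 54.7, 60.8 and 54.8 CPM in WT. TARS1 rose by 0.30 and the scaffold AIMP2 by 0.29, and FARSB, the beta subunit of the phenylalanyl enzyme, fell by 0.36. Its partner subunit FARSA rose by 0.21. Outside the shifted segments 7 of 35 rose, and without WT library 1 or WT library 3 the count of higher members was 7 each. Enzymes of serine, folate and one-carbon metabolism had 9 of 34 higher and 3 lower, with 5 higher without WT library 1. The methionine synthase gene MTR was at 218, 263 and 268 CPM against 196, 185 and 199 CPM, the folate carrier SLC19A1 rose by 0.37 and AHCY by 0.28. MTR had 17 of 20 neighbours above 0, SLC19A1 18 of 20 and AHCY 12 of 20. ALDH1L2, which oxidises formyl folate in mitochondria, had 4, 10 and 7 counts in mut and 78, 97 and 63 counts in WT, 9.56-fold higher in WT. Amino acid transporters had 8 of 28 higher and 5 lower, or 3 lower without mut library 3 or WT library 3. The cystine transporter gene SLC7A11 was at 33.7, 42.7 and 37.8 CPM against 57.9, 53.0 and 68.1 CPM. NFE2L2, the factor NRF2 that drives SLC7A11, fell by 0.45, as did GCLC of glutathione synthesis by 0.37, while PRDX6 and the iron exporter SLC40A1 rose by 0.30 and 0.61. In that redox list 8 of 46 rose and 4 fell, and 4 rose without library 1 of mut or library 1 or 3 of WT.

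Lists of general protein metabolism had balanced counts. Translation factors had 8 of 55 higher and 9 lower, with EIF4G1 and EEF1A2 higher by 0.36 and 0.52 and the X-linked EIF1AX and EIF2S3 lower by 0.54 and 0.36. Upper-quartile scaling gave 13 higher. Chaperones had 6 of 47 higher and 7 lower. CCT5, a subunit of the chaperonin that folds actin and tubulin, was at 1292, 1299 and 1271 CPM in mut and 990, 963 and 1001 CPM in WT. HSPA1B rose by 0.30, HSPB8 by 1.79 and HSPA2 fell by 0.87. Proteasome genes had 7 of 46 higher and 6 lower, but outside the shifted segments 3 of 35 rose and 1 fell. PSMA4, on chromosome 15, and PSMG2, on chromosome 18, rose by 0.43 each (4 higher in all without WT library 1), and PSME1 and PSMA6, on chromosome 14, fell by 0.55 and 0.59. Autophagy and lysosome genes had 11 of 58 higher and 10 lower. Besides CTSV, the rises were in lysosomal hydrolases, with alpha-galactosidase GLA at 176, 160 and 148 CPM against 109, 113 and 114 CPM and the sialidase NEU1 higher by 0.49, and in the cholesterol exporter NPC1 (0.47). NPC1, on chromosome 18, had 18 of 20 neighbours above 0, against 2 of 20 for GLA and 13 of 20 for NEU1. DESeq2 called 4 lower, and without library 1 of mut or library 1 or 3 of WT the count was 6, 4 and 3.

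Glycosylation genes had 5 of 54 higher and 10 lower, or 8 higher without WT library 2. The polysialyltransferase gene ST8SIA4 was at 1.005, 2.11 and 1.15 CPM in mut and 7.34, 6.73 and 8.60 CPM in WT. The mannosidase gene MAN1A1 and the oligosaccharyltransferase subunit DAD1 fell by 0.51 and 0.49, and the glucosidase gene MOGS rose by 0.55. DAD1 lies in the first segment of chromosome 14, where 61 of 104 protein-coding genes fell and 2 rose. It had 4 of 20 neighbours above 0, against 2 of 20 for MAN1A1 and 13 of 20 for MOGS. A list of calcium handling genes had 7 of 34 higher and 2 lower. CALR, a calcium-binding chaperone of the endoplasmic reticulum, rose by 0.27 and CALM2, which encodes cytosolic calmodulin, by 0.26. The plasma membrane calcium pump genes ATP2B4 and ATP2B1 rose by 0.54 and fell by 0.29, and the count lower was 1 without WT library 3. ATP2B4, on chromosome 1, had 19 of 20 neighbours above 0, and ATP2B1 had 7 of 20. Ion channels had 6 of 35 higher and 4 lower, among them the potassium channels KCNK1, KCNS3 and KCNK5, higher by 0.75, 0.77 and 0.55. DESeq2 called 3 higher, as did edgeR without mut library 3 or WT library 2. All 20 neighbours of KCNK1 on chromosome 1 were above 0, against 9 of 20 for KCNS3 and 6 of 20 for KCNK5. Lipid enzymes had 10 of 51 higher and 8 lower, with the desaturases FADS1 and SCD5 higher by 0.50 and 0.54 and PPARG and ACADM lower by 0.53 and 0.36. Apoptosis regulators had 5 of 42 higher (3 without WT library 1) and 2 lower (4 without WT library 2), with the decoy receptor gene TNFRSF10D and the death receptor gene TNFRSF10B higher by 0.52 and 0.31 and BCL2L2 and CASP8 lower by 0.70 and 0.36. BCL2L2, in the same segment of chromosome 14 as DAD1, had 4 of 20 neighbours above 0, and CASP8 had 6 of 20.

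Nuclear pore and RNA export genes had 9 of 64 higher and 6 lower, and outside the shifted segments 5 each. Without library 1 of mut or library 1 or 3 of WT the count lower was 3. NUP133 on chromosome 1 was at 385, 420 and 409 CPM in mut and 284, 269 and 283 CPM in WT. NUP155 on chromosome 5 and SEH1L on chromosome 18 rose by 0.35 and 0.50, and NUP153 fell by 0.31. Tubulins and motors had 7 of 49 higher and 9 lower, and 4 lower without WT library 3. The axonal kinesin gene KIF1A was at 189, 171 and 194 CPM against 120, 130 and 115 CPM, and TUBB6 and MAP1A rose by 0.54 and 0.56. All 20 neighbours of TUBB6 on chromosome 18 were above 0, with a median of 0.43. KIF1A had 11 of 20 above 0 and MAP1A 9 of 20. Of 7 tested cancer-testis genes PRAME rose, and MAGED2 (−0.19, lost in DESeq2 and when single libraries were left out, adjusted p up to 0.19) and MAGEH1 (0, 0 and 1 counts against 30, 44 and 25) fell. Of 11 tested imprinted genes KCNQ1OT1 was at 48.2, 57.8 and 52.4 CPM against 79.6, 75.6 and 90.7 CPM, and PEG10 fell by 0.21, with adjusted p up to 0.075 when single libraries were left out.

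Among whole chromosomes the largest median shift was on chromosome 18 (0.28), where 113 of 184 protein-coding genes rose and 0 fell. Chromosome 15 had 123 of 404 higher and 41 lower, the last segment of chromosome 1 180 of 304 higher and 9 lower, chromosome 14 133 of 415 lower and 15 higher, and the X chromosome 127 of 416 lower and 24 higher. On chromosome 21, 39 of 109 protein-coding genes rose and 2 fell, with a median of 0.17. Its last segment, from 43773950 to 46665124, had 17 of 27 higher and 0 lower. The first segment of chromosome 5, from 92168 to 69277430, had 63 of 140 higher and 1 lower, with a median of 0.21, and holds FBXO4, SELENOP, CCT5, TARS1 and NUP155. Chromosome 22 had 51 of 275 higher and 10 lower, and chromosome 16 had 91 of 542 higher and 36 lower. Chromosome 4 had 126 of 456 lower and 30 higher, with a median of −0.12, and chromosome 10 had 94 of 480 lower and 30 higher. In the library medians the mut and WT groups were apart on chromosomes 21, 4 and 10. On chromosome 22 WT library 2 (0.0099) lay above mut library 2 (0.0041). On chromosome 4 the mut medians were −0.13, −0.02 and −0.04, so mut library 1 stood farthest from WT. A difference in the line that carries each variant and a difference in DIS3L2 activity cannot be told apart for these segments.

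**Figure D5:**
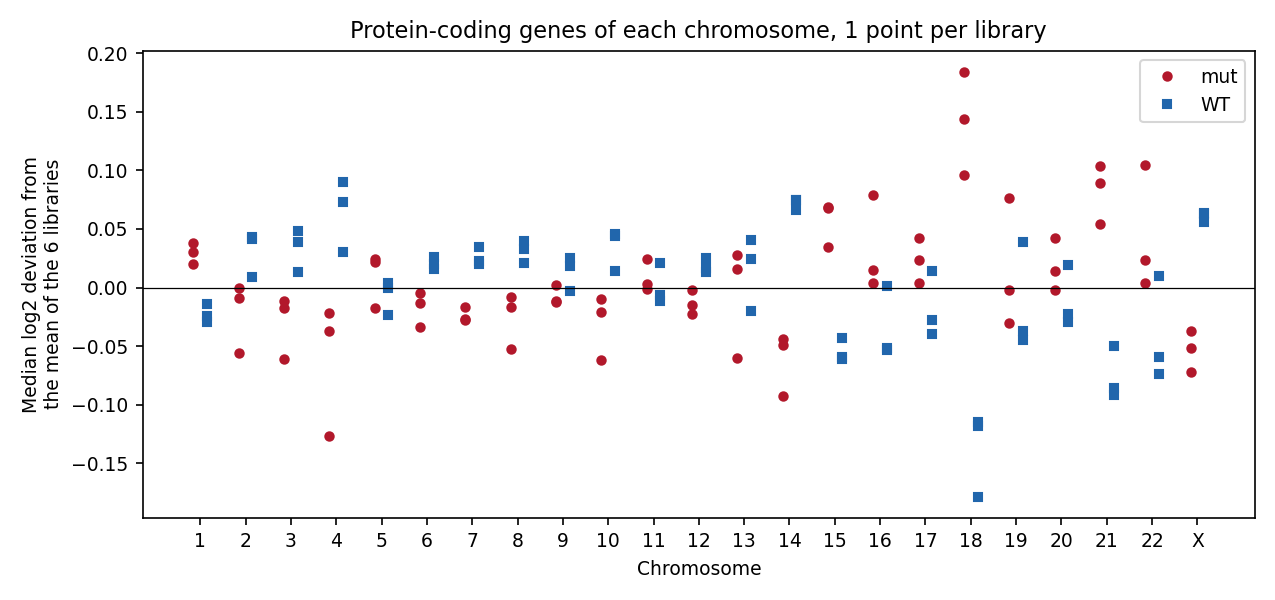
Median log2 deviation of the protein-coding genes of each chromosome from their mean over the 6 libraries, 1 point per library, with mut as red circles and WT as blue squares. Chromosome 18 shows the widest gap, chromosomes 15 and 21 have mut above WT, and chromosomes 4, 14 and X have mut below WT.

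The reads that were not assigned to 1 gene also differed between the groups. Reads that overlapped several genes made up 9.86%, 9.28% and 8.60% of all deposited reads in mut and 6.90%, 8.28% and 7.86% in WT. As a share of uniquely aligned reads this was 15.4% ± 0.47 in mut and 11.7% ± 0.63 in WT (SD, n = 3). Reads outside genes were 12.9%, 13.7% and 12.3% in mut and 16.6%, 17.6% and 19.4% in WT. Neither pair of groups overlapped, and each two-sided exact permutation test gave p = 0.1, the smallest that 20 assignments allow. Reads with several alignments made up 37.3%, 40.23% and 42.03% in mut and 39.5%, 33.5% and 30.5% in WT, with overlapping groups (exact permutation p = 0.2). These reads are not in the gene counts, and their part in the gene results was not tested.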

How the data were processed

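Raw read counts per gene were deposited by the authors for each library. Per the submitters' processing notes, STAR 2.4.0 and HTSeq 0.6.1 were used with hg38; annotation version and strand setting: not given in the sources used here. Rows of the tables that name no gene held 57.8% to 63.2% of reads and entered neither library sizes nor tests. Genes passing filterByExpr were tested with edgeR 4.0.16 (quasi-likelihood F test, TMM, no covariate, Benjamini-Hochberg adjustment over 14409 genes, threshold 0.05) in R 4.3.3, with limma 3.58.1 and DESeq2 1.42.0 as alternatives. Replicate libraries differed by more than sampling noise. In simulated data for this comparison edgeR called 46 of 50 genes with a 2-fold rise and 13 of 14209 unchanged genes. It called 41 of 50 with a 1.5-fold rise and 42 of 50 with a fall to 0.5 of the level. The simulation held independent libraries, few changed genes and no change under 1.5-fold. These rates therefore do not apply to the smaller differences that made up 76.5% of the calls here. Symbols, coordinates and promoter windows are from RefSeq GRCh38.p14.

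The members and gene lists were chosen with earlier results of these data known. Genes named singly were DIS3L2, the 15 protein-coding and 8 other called genes each way with the largest fold change (at least 10 CPM in the higher group, no overlap), the 10 each way with the largest CPM difference, and up to 4 members per list with the smallest adjusted p (under 2 passing: the most abundant). Not all genes so selected are reported here. ZNF and CEP genes, SRF, the genes with a CArG box and further list members were chosen after their values were seen. Neighbours are the 10 protein-coding tested genes on each side.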

Additional observations from a re-analysis of the deposited data

How the results depend on the processing

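The alternatives were upper-quartile scaling, other filters, thinning to equal depth, removal of a trend with gene span, limma voom, DESeq2, a test against a 1.5-fold change and leaving out each library. DESeq2 called 1200 genes higher and 1250 lower, with 122 and 88 over 2-fold. The test against a 1.5-fold change called 83 higher and 58 lower, with 76 and 50 over 2-fold. With no filter on low counts 249 genes fell by over 2-fold. Leaving out each library in turn gave 1327 to 1832 genes higher and 1274 to 2109 lower, the lowest count of falls being without WT library 3, with 189 to 242 and 121 to 169 over 2-fold. Of the 3916 called genes 2072 were called in all 6 of these fits. The replicate block gave 1675 higher and 1845 lower, with 194 and 137 over 2-fold, and lost the calls of ENO1, GAPDH and MAGED2. Libraries with the same number did not deviate together (correlations −0.247, −0.259 and 0.0284), and the largest correlation was between mut library 1 and WT library 2 (0.354). With 3 libraries per group these values cannot decide whether the numbers mark a shared batch. Over 188 named genes 2659 of 2818 values under alternatives kept their direction and side of the threshold, 159 lost the call, 130 of them in the test against a 1.5-fold change, and 0 reversed. Most of these genes were selected for large or strongly called differences in the same libraries, so this agreement was largely fixed in advance. Over all 3916 called genes DESeq2 called 2447 in the same direction. Of 1050 list counts 866 stayed within 1.5 times. The list counts without members in shifted chromosome segments were chosen after seeing the data.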
